A study of Mus musculus with 2 samples.

Results

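Closely spaced Ebf1 peaks are binding regions that lie next to another Ebf1 peak with at most 500 bp of unlisted sequence between their edges. They were selected on the listed positions alone, on chromosomes 1 to 19, and numbered 3368 of the 33352 peaks on those chromosomes and of 34534 in the whole list. They formed 1774 neighbouring pairs, since a peak in the middle of a longer run belongs to a pair on each side. The cells were mature 3T3-L1 adipocytes, a mouse preadipocyte line turned into fat-storing cells, which were fixed with 1% formaldehyde at day 10 after MDI, the hormonal mixture that starts their conversion. No genetic change is named in the labels. The peaks come from 1 Ebf1 ChIP-seq library, and a library of whole cell extract without antibody, prepared from the same kind of cells, was not analysed here.

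Ebf1 (early B cell factor 1) is a helix-loop-helix transcription factor that binds DNA as a dimer at a palindromic site and is known as a regulator of both B cell and fat cell identity. Regulatory regions often carry several binding sites for the same factor, so peaks that sit side by side are a place to look for such arrangements. A ChIP-seq peak is a stretch of enriched fragments and not a binding site. Sequences under the peaks and genes beside them were not analysed here, because the peak list is on the mm9 build and only tables of a later build were at hand. Regions are given by mm9 coordinates.

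Every peak carries a position and 2 deposited whole numbers of unstated meaning. The first, called the score, ran from 3 to 597 in the whole list, and a peak is called strong below when it scored 55 or more and weak otherwise. The other, called the second value, ran from 0 to 15. Whether both numbers were drawn from the Ebf1 library is not stated. Both numbers and the positions come from the same list, and neighbouring peaks are not independent. All values are therefore given as a description of this list, without replicate error and without a test, and read depth is unknown. The 95% intervals are exact Clopper-Pearson intervals that cover counting error only.

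Small gaps were the most frequent. All gaps were multiples of 25 bp, the step on which the listed positions fall. The smallest possible gap, 25 bp, separated 182 of the 1774 pairs, or 10.3%, and was the most common of all. The number of pairs then fell with the gap, to 60 at 500 bp. Beyond the limit the mean was 52.1 pairs per 25 bp step up to 1 kb and 38 between 1 and 2 kb. The median gap within the pairs was 200 bp, with quartiles of 100 and 350 bp.

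**Figure D1:**
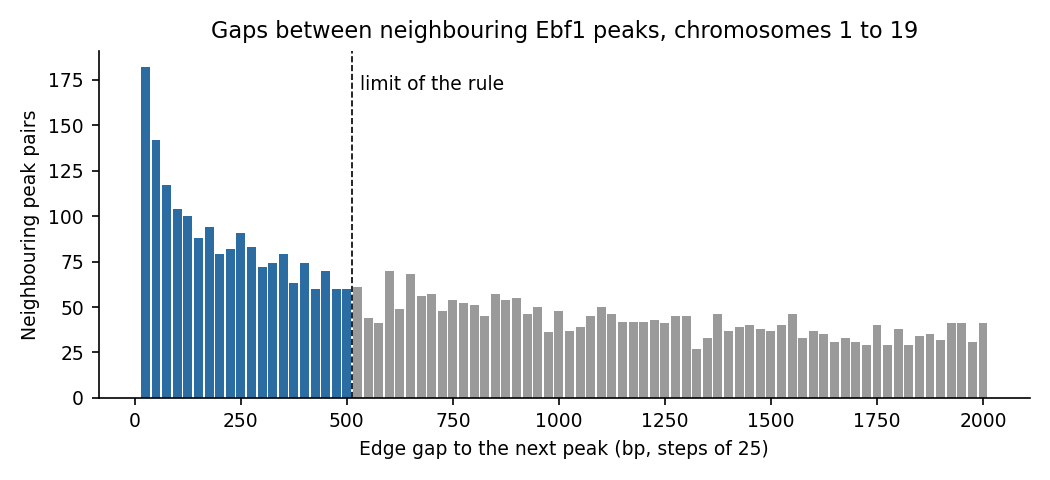
Number of neighbouring Ebf1 peak pairs (y axis) at each edge gap in bp (x axis, steps of 25) on chromosomes 1 to 19. Blue bars are the pairs within the 500 bp limit (dashed line) and grey bars are pairs with wider gaps; the count falls from 182 at 25 bp to 60 at 500 bp.

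Pairs just inside and just outside the limit had similar values. The 60 pairs with a gap of exactly 500 bp had a median lower score of 9 and a median higher score of 19.5, and 12 of them held a strong peak. One step further out, 61 pairs had medians of 11 and 23, and again 12 held a strong peak. Their mean second values were 1.93 inside and 2.06 outside.

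From centre to centre, the peaks of a pair were a median of 562.5 bp apart, from 225 to 1312.5 bp, and the middle 50% of pairs lay between 437.5 and 725 bp. The lower end is set by the narrowest listed peak, of 200 bp, and the smallest gap. End to end, pairs spanned 425 to 2125 bp. The widest peak anywhere in the list measured 975 bp, and 1048 pairs, or 59.1%, spanned no more than that.

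Most paired peaks came as simple doublets. Of 1594 runs, 1435 held 2 peaks, 144 held 3, 10 held 4, 4 held 5 and 1 held 6. In the runs of 3 the middle peak had the highest score in 48, the lowest in 48, and a score between or level with its neighbours in 48. Over all 1594 runs, the nearest peak outside the run lay at a median of 5512.5 bp, against 11575 bp for the peaks without a close neighbour. No other peak lay within 12.5 kb of 475 runs, or 29.8%, while 48.0% of the peaks without a close neighbour had none within that distance.

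Taken over all windows, paired peaks were slightly stronger than the rest. Their median score was 14 (quartiles 9 and 29), against 13 (8 and 26) for the 29984 other peaks of chromosomes 1 to 19. Strong peaks made up 462 of the 3368, or 13.7% (95% interval 12.6 to 14.9), where 10.4% of all 33352 autosomal peaks were strong and 10.0% (9.67 to 10.4) of the others. Width moved with this difference. Of the paired peaks 5.46% (4.72 to 6.29) were 700 bp wide or more, against 3.01% (2.82 to 3.21) of the others. When the other peaks were weighted to the widths of the paired ones, 13.1% of them were strong. Little of the difference in this share thus remained at equal width. Width and strength are closely tied in this list, so the weighting cannot show width as a trait apart from strength. No peak under 300 bp was strong, while 97.8% of paired and 95.1% of other peaks of 800 bp or more were. The mean score still differed, at 29.2 in paired peaks, 24.0 in the others as listed and 27.5 in the others after weighting.

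Seen from the peaks, the share with a close neighbour was highest among the strongest and widest. It was 6.96% (6.33 to 7.63) at scores of 3 to 7 and 16.0% (14.0 to 18.2) at scores of 100 or more, but it did not climb evenly, with 11.3% (10.6 to 12.01) at scores of 13 to 25 and 9.77% (8.98 to 10.6) at 26 to 54. Peaks under 300 bp had a close neighbour in 9.81% of cases (9.34 to 10.3) and peaks of 800 bp or more in 20.2% (16.6 to 24.2). A wide peak also reaches nearer to its neighbours by its own width.

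**Figure D2:**
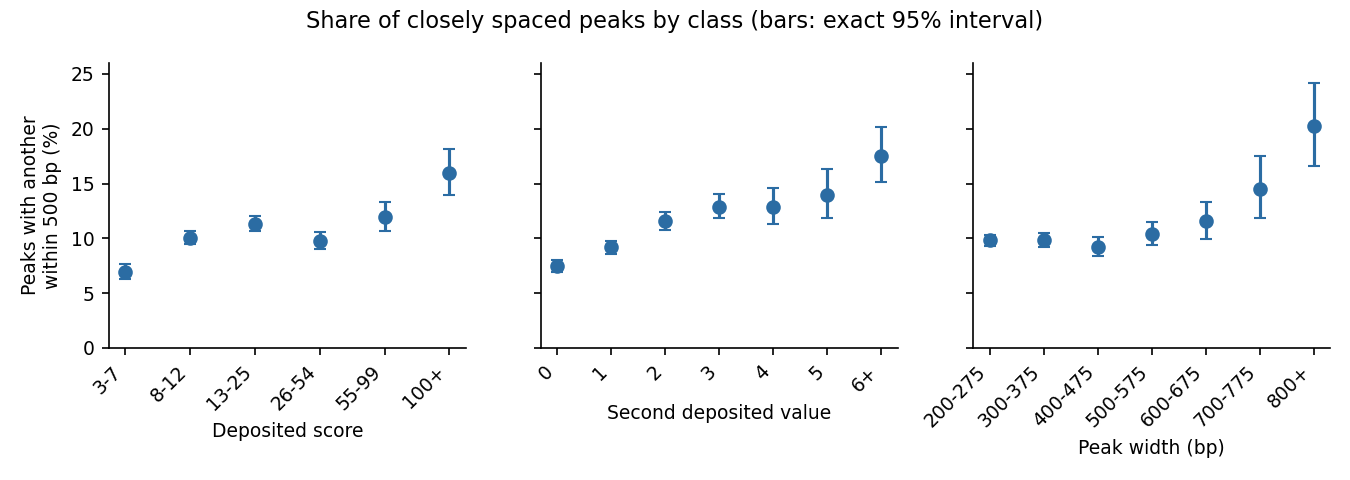
Share of peaks on chromosomes 1 to 19 with another peak within 500 bp (y axis, percent) by class of deposited score, second deposited value and peak width in bp (x axes); points are shares and bars exact 95% intervals for counting error. The share is 16.0% at scores of 100 or more, 17.5% at second values of 6 or more and 20.2% at widths of 800 bp or more.

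The second value was higher in paired peaks. It was above 0 in 2650 of 3368, or 78.7% (77.3 to 80.1), where 71.2% of all autosomal peaks and 70.4% (69.8 to 70.9) of the other peaks were above 0. Its mean was 1.93 ± 1.79 (SD, n = 3368 peaks) against 1.51 ± 1.57 (SD, n = 29984 peaks), spreads between peaks and not between replicates. The share of peaks with a close neighbour went from 7.48% (6.96 to 8.02) at a second value of 0 to 17.5% (15.1 to 20.2) at 6 or more.

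Much of this difference, taken as the share of peaks at 0, was still present at equal width. Paired peaks stood at 0 in 21.3% of cases (19.9 to 22.7), and the other peaks in 29.6% as listed, in 28.8% when weighted to the same widths and in 26.6% when weighted to width and to the number of peaks in the surrounding 1 Mb window together. In each of the 6 width classes the share at 0 was lower in paired peaks, and in 3 of the 6 the 95% intervals did not overlap. Among peaks under 300 bp it was 30.3% (28.0 to 32.7) against 40.8% (39.998 to 41.6). The other 3 classes held the peaks of 500 bp or more, where few peaks of either kind were at 0 and the shares lay closer. At 500 to 575 bp they were 8.83% (6.08 to 12.3) in paired peaks and 10.4% (9.33 to 11.5) in the others. The mean second value was also higher in paired peaks in all 6 score classes, from 0.962 against 0.762 at scores of 3 to 7 up to 4.25 against 3.83 at scores of 100 or more. What the second value measures is not stated, so its part in the calling of close pairs was not tested.

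Scores within a pair often differed, about as much as those of neighbours up to 2 kb apart. In 974 of the 1774 pairs, or 54.9% (52.6 to 57.2), the higher score was at least 2 times the lower, while 50.5% of all 33333 neighbouring peaks on these chromosomes differed by that much, whatever their distance. The share was 53.98% (52.03 to 55.9) for neighbours with gaps from there to 2 kb, 52.4% (51.3 to 53.5) from 2 to 12.5 kb and 48.97% (48.3 to 49.7) beyond. The median pair had a lower score of 10 and a higher score of 25. A difference of 10 times or more was seen in 136 pairs, or 7.67% (6.47 to 9.004), and in 5.24% of all neighbours. Equal scores were listed in 69 pairs, or 3.89% (3.04 to 4.90), and in 4.36% of all neighbours.

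The scores of partners were nearly uncorrelated. Across the 1774 pairs, which share the library and overlap in runs, Pearson's r between the left and right scores was 0.033 and Spearman's rho was 0.0023. For neighbours further apart the coefficients were weak but higher, above all the rho. The r was 0.044 and the rho 0.11 up to 2 kb, and 0.069 and 0.11 from 2 to 12.5 kb. Beyond that they were 0.051 and 0.13. The second values of partners, also weakly correlated, went the other way and were highest in the close pairs. Their r was 0.118 and their rho 0.106 within the limit, and 0.084 and 0.075 from there to 2 kb. They were 0.077 and 0.066 from 2 to 12.5 kb, and 0.068 and 0.066 beyond. The left peak had the higher score in 832 pairs and the right one in 873.

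**Figure D3:**
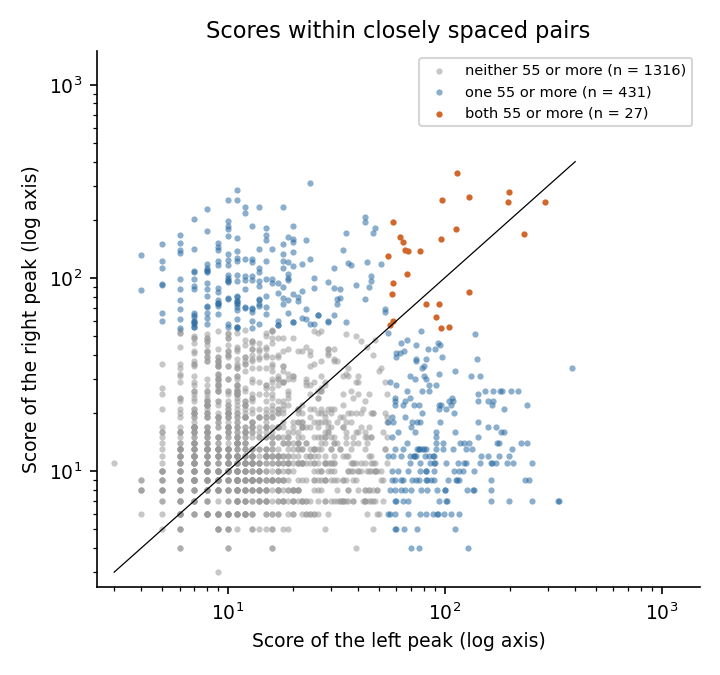
Deposited score of the left peak (x axis, log scale) against that of the right peak (y axis, log scale) for the 1774 closely spaced pairs; the line marks equal scores. Orange points are the 27 pairs in which both peaks scored 55 or more, blue points pairs with 1 such peak and grey points pairs with none.

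Of the 1774 pairs, 458 (25.8%, 23.8 to 27.9) held at least 1 strong peak. The share was 19.4% for all neighbouring peaks and 25.02% (23.4 to 26.7) for neighbours with gaps from the limit to 2 kb, so close pairs were near the latter. In the 458 pairs the median lower score was 13, the same as the median of the whole list. Only 27 pairs joined 2 strong peaks, or 1.52% (1.01 to 2.21), where 1.38% of all neighbouring peaks did. The share was higher at gaps from the limit to 2 kb, at 2.30% (1.76 to 2.96), and from 2 to 12.5 kb, at 2.09% (1.79 to 2.42). It was 0.970% (0.841 to 1.11) beyond. Counted among pairs with a strong peak, both were strong in 5.90% (3.92 to 8.46) within the limit. The share was 9.20% (7.08 to 11.7) at gaps from there to 2 kb and 9.13% (7.88 to 10.5) from 2 to 12.5 kb. It was 5.81% (5.05 to 6.64) at gaps over 12.5 kb and 7.14% (6.52 to 7.79) for all neighbours. The interval of the close pairs overlaps each of the others. The remaining 1316 pairs held no strong peak.

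The weak partners of strong peaks had nearly the same scores, widths and second values as weak peaks paired among themselves. The 425 weak peaks next to a strong one had a median score of 13 and a median width of 275 bp, and the 2481 weak peaks next to weak ones only had 12 and 275 bp. The second value was 0 in 22.8% (18.9 to 27.1) of the former and 24.1% (22.4 to 25.8) of the latter, but in 32.2% (31.6 to 32.7) of the 26984 weak peaks without a close neighbour. The higher second values were therefore found next to weak partners as well as strong ones.

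The strongest pair, by the lower of its 2 scores, lay on chromosome 16. Its left peak, chr16:32659401-32660225, scored 289 and its right peak, chr16:32660301-32661200, scored 248, with a gap of 75 bp between them. The peaks were 825 and 900 bp wide, with second values of 9 and 5. They stood among 4 other peaks within 12.5 kb. Among these was a weaker pair of strong peaks, chr16:32666326-32667050 with a score of 105 and chr16:32667501-32668050 with a score of 56.

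The pairs ranked next held similar scores on both sides. On chromosome 17, chr17:29199126-29199975 scored 198 and chr17:29200276-29201225 scored 279, 300 bp apart. On chromosome 5, chr5:141047276-141048150 scored 197 and chr5:141048351-141049175 scored 248, 200 bp apart. This pair stood by itself, with the nearest peaks 28175 bp to the left and 29525 bp to the right. On chromosome 2, chr2:38841926-38842850 scored 232 and chr2:38843201-38843825 scored 168, with second values of 0 and 2.

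In the fifth and sixth pairs the right peak was 2.03 and 3.05 times as high as the left. The fifth, on chromosome 8, joined chr8:47554176-47555000 with a score of 129 to chr8:47555126-47555925 with a score of 262 and a second value of 11. It also had no other peak within 12.5 kb. The sixth, on chromosome 1, was the longest, since chr1:154968276-154969125 with a score of 114 and chr1:154969626-154970400 with a score of 348 lay exactly 500 bp apart and spanned 2125 bp. A slightly lower limit would have left this pair out.

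The last 4 of the 10 were lower. On chromosome 6, chr6:113384551-113385350 scored 113 beside chr6:113385551-113386150 with 179, and chr6:29163276-29163850 scored 97 beside chr6:29164151-29164800 with 254. The ninth pair, on chromosome 17, joined a score of 96 at chr17:87752001-87752675 to 160 at chr17:87753026-87753700. The tenth, on chromosome 2, joined 129 at chr2:45267901-45268600 to 85 at chr2:45268876-45269450. Across the 10, the gap was narrower than either peak, as the map of these pairs shows.

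**Figure D4:**
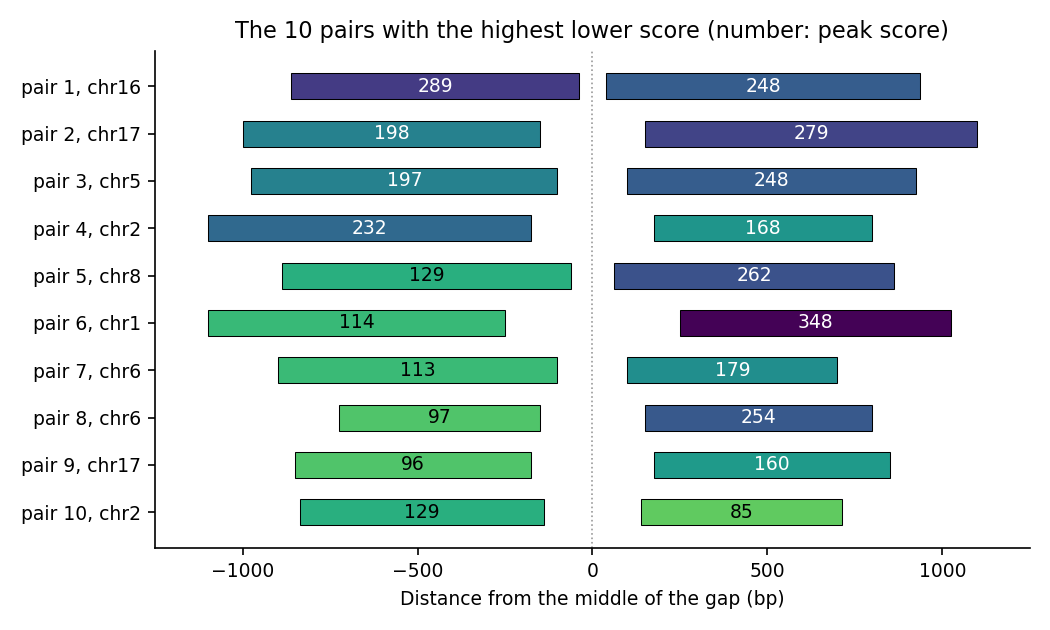
The 10 pairs with the highest lower score, drawn to scale as distance in bp from the middle of the gap (x axis), 1 pair per row; each box is a listed peak, its number and colour give the deposited score. The gaps run from 75 bp in pair 1 to 500 bp in pair 6.

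The 27 pairs of strong peaks lay on 14 chromosomes, with 4 on chromosome 6 and 3 each on chromosomes 2, 8 and 10. Their gaps ran from 25 to 500 bp with a median of 250 bp. The median lower score was 68 and the median higher score 138, and the higher was at most 3.34 times the lower. All 27 spanned more than the widest listed peak, from 1225 bp upward, since strong peaks are themselves wide. Their mean second value was 4.02. The 27 pairs lay in 27 separate runs, so no peak was counted in more than 1 of them. In all, 33 runs held 2 strong peaks, some of them parted by a weak peak.

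The closest pair of strong peaks lay on chromosome 7 with the smallest gap, 25 bp. There chr7:56414076-56414950 scored 91 and chr7:56414976-56415525 scored 63. It was isolated, with 284625 bp to the peak on its left and 56625 bp to the peak on its right, in a 1 Mb window of only 8 peaks. The pairs on chromosomes 16 and 8 described above followed, at 75 and 125 bp. On chromosome 10, chr10:17195701-17196225 scored 58 and chr10:17196351-17197250 scored 194, also 125 bp apart. On chromosome 6, chr6:29770776-29771375 scored 77 and chr6:29771551-29772200 scored 138, 175 bp apart in a run of 3 peaks.

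Each of the 19 chromosomes had a strongest pair, whose lower score ranged from 32 to 248 with a median of 66. In 14 of them both peaks were strong. The 5 chromosomes without such a pair were 9, 12, 13, 14 and 15. Chromosome 12 came near with scores of 53 and 69 at chr12:101705351-101706075 and chr12:101706101-101706650, 25 bp apart and both with a second value of 0. On chromosome 14 the best pair had scores of 94 and 32, at chr14:77139551-77140250 and chr14:77140351-77140825. On chromosome 15 neither peak was strong, with scores of 50 at chr15:85920301-85920725 and 33 at chr15:85921126-85921450. The same held on chromosome 13, with scores of 35 at chr13:40995851-40996300 and 51 at chr13:40996551-40997175.

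At the other extreme, a strong peak had a faint companion. The most unequal pair lay on chromosome 1, where chr1:175552201-175553100 scored 335 and chr1:175553276-175553475 scored 7, a ratio of 47.9. On chromosome 6, chr6:29764401-29765200 scored 332 beside a score of 7 at chr6:29765401-29765600. Ratios of 36, 33 and 32 followed on chromosomes 16, 12 and 19. In 4 of these 5 pairs the faint peak had the minimum width of 200 bp, and in the pair on chromosome 16 it measured 225 bp. The strongest of all paired peaks, singled out after its values were seen, was of this unequal kind: chr5:36052851-36053575 scored 386, and its partner chr5:36053626-36054075 scored 34 across a gap of 50 bp.

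The longest runs were made mostly of weak peaks. The only run of 6 lay at chr2:177501451-177504400, with scores of 9, 15, 28, 18, 14 and 8 from left to right, highest at the third peak and lower toward both ends. Of the runs of 5, the one at chr2:174840601-174843500 scored 7, 16, 29, 60 and 41 and was the only one of the 5 longest runs with a strong peak. The run at chr16:3252626-3255625 scored 11, 17, 10, 17 and 15. Those at chr2:176923776-176926175 and chr2:176890851-176893000 had highest scores of 16 and 14. Of these 5 runs, 4 thus lay on chromosome 2, and 3 of them in 1 Mb windows of 138 or 208 peaks.

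Close pairs were more frequent where peaks were dense. In 1 Mb windows of under 10 peaks, 3.04% of peaks (2.56 to 3.57) had a close neighbour. The share was 7.38% (6.85 to 7.94) in windows of 10 to 19 peaks, 11.7% (11.2 to 12.2) in windows of 20 to 49 and 23.2% (21.5 to 24.98) in windows of 50 or more. A denser window has closer peaks by arithmetic alone, so these shares describe density as well as pairing. The windows of 50 or more peaks held 16.1% (14.9 to 17.4) of paired peaks and 7.01% (6.74 to 7.29) of all autosomal peaks. Paired peaks there were strong in 8.66% of cases (6.43 to 11.3) and the other peaks in 9.13% (7.84 to 10.6), so the higher share of strong peaks among paired ones was not seen in these windows. In windows of 20 to 49 peaks it was 15.2% (13.7 to 16.9) against 11.7% (11.2 to 12.3). The share was 13.5% against 9.79% in windows of 10 to 19 peaks. It differed most in windows of under 10 peaks, at 12.6% of 143 paired peaks against 4.95% of the others.

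The window with the most paired peaks lay on chromosome 2 from 177 to 178 Mb, with 81 of 208, none of them strong. The windows next to it, from 176 to 177 Mb and from 175 to 176 Mb, held 39 of 138 and 31 of 114, again with none strong. The window on chromosome 8 from 71 to 72 Mb was different, since 32 of its 80 peaks were paired, 5 of them strong, and its highest peak scored 253. On chromosome 17 from 84 to 85 Mb 17 of 75 peaks were paired and on chromosome 19 from 4 to 5 Mb 17 of 65, with 5 strong in each. Of 2325 windows with a peak, 850 held a paired one, and the median such window held 2.

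By chromosome, the share of peaks with a close neighbour ranged from 5.76% (4.61 to 7.10) on chromosome 3 to 13.03% (11.9 to 14.2) on chromosome 2. Chromosomes 16 with 12.5% (10.9 to 14.2), 19 with 12.3% (10.6 to 14.3) and 8 with 12.1% (10.8 to 13.4) came next, and their intervals overlap that of chromosome 2. Across the 19 chromosomes, which differ in peaks per Mb, this share and the number of peaks per Mb had a Pearson's r of 0.886 and a Spearman's rho of 0.881. Without windows of 50 or more peaks, chromosome 2 fell to 9.07% and chromosome 13 from 7.14% to 4.79%, while chromosomes 16 at 11.9%, 11 at 11.7% and 19 at 11.6% were then highest. Chromosome 18, at 6.76%, had few paired peaks. Of its 58, 22.4% (12.51 to 35.3) were strong, against 10.5% (8.46 to 12.8) of its 800 other peaks, and the intervals overlap. Only on chromosome 6 were these intervals apart, at 18.8% (14.4 to 24.0) against 9.80% (8.64 to 11.0). Paired peaks were less often strong than the others on chromosomes 12 (6.78% against 9.11%), 13 (4.60% against 8.48%) and 15 (8.43% against 10.3%). On the remaining chromosomes they were more often strong.

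**Figure D5:**
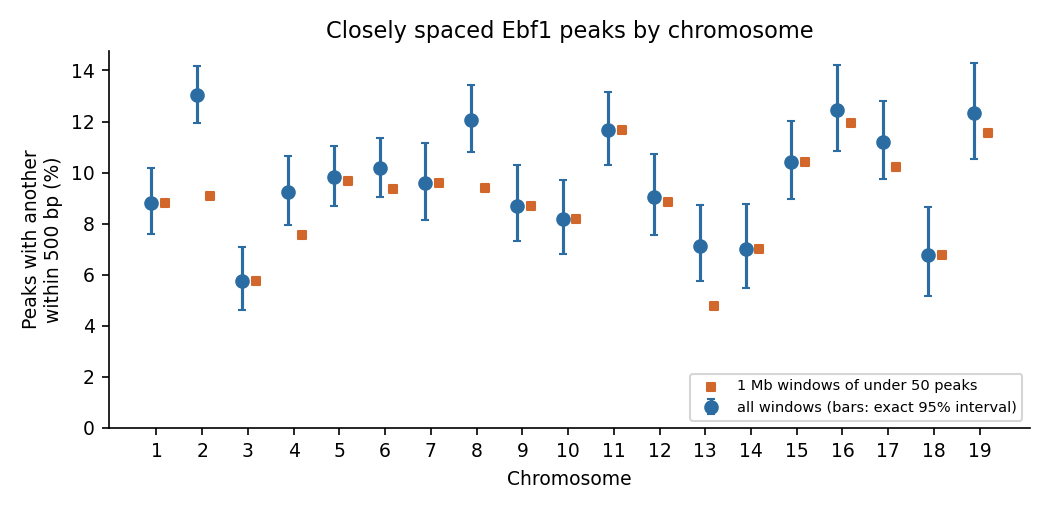
Share of peaks with another peak within 500 bp (y axis, percent) on each of chromosomes 1 to 19 (x axis). Blue points use all peaks, with exact 95% intervals for counting error, and orange squares only 1 Mb windows of under 50 peaks, where chromosome 2 falls from 13.03% to 9.07%.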

How the data were processed

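Per the labels, 2 libraries were made, 1 Ebf1 ChIP and 1 whole cell extract, and the deposited peak list of the first was used. The submitters' processing notes name mm9 as the build and SAMtools as a tool. Which aligner and peak caller were used, and at what threshold, is not given in the sources used here. Deposited by the authors were positions and 2 scores per peak of unstated meaning, used as listed. Positions were taken as 1-based and inclusive, because each of the 34534 peaks ended on a multiple of 25 and began 1 base after one.

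Peaks of chromosomes 1 to 19 were sorted by start, and gaps are the next start minus the end minus 1. Windows of 1 Mb were assigned by peak centre. The members, groupings and naming rule were chosen with earlier results of these data known. Named regions are the 10 pairs with the highest lower score, the 5 with the largest ratio, the 5 closest with both peaks at 55 or more, the 5 longest runs and the strongest pair of each chromosome. Position relative to genes and motifs were planned and not run without mm9 sequence. With 1 library there is no replicate error and no test. The pair finder was tested on simulated positions. Tables were computed with pandas 2.3.3 and numpy 2.4.6 in Python 3.11.15, intervals with scipy 1.17.1 and plots with matplotlib 3.10.9.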

Additional observations from a re-analysis of the deposited data

Results flagged for a closer look

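Peaks outside chromosomes 1 to 19, which the comparisons above do not use, also lay close together. On chromosomes 1 to 19 together 10.1% (95% interval 9.78 to 10.4) of peaks were paired, with 13.03% on chromosome 2 alone. Chromosome X had 99 paired peaks of 804, or 12.3% (10.1 to 14.8), an interval that overlaps the one for chromosomes 1 to 19. Their median score was 13, and 2 of them were strong. Chromosome Y had 10 of 33, or 30.3% (15.6 to 48.7). On unplaced sequences 123 of 345 were paired, or 35.7% (30.6 to 41.0), of which 77 lay among the 125 peaks of chr8_random. The second value was 0 for every paired peak on chromosome Y and the unplaced sequences, and also for all 23 and 222 unpaired peaks there. No values labelled as control were at hand to set these counts against.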

How the results depend on the processing

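Of 54 alternative values, 33 stayed near the reported value and 21 moved. The limit was 1.5 times for counts and the 95% interval for shares and medians. Each value is a count, share or median of a single group, so a reversal between groups was not assessed. By construction the gap limit set the size: 250 bp gave 2092 paired peaks in 1079 pairs (6.27% of peaks) and 1000 bp gave 5183 in 2816 (15.5%). Pairing only peaks that scored 13, the median, or more left 1124 peaks in 580 pairs (6.63%), with a median score of 26, 23.5% strong and a median width of 425 bp, as a list cut on the score must have. Without 1 Mb windows of 50 or more peaks the share of paired peaks was 9.11% and the share of pairs differing at least 2 times in score rose to 58.3%. The matching share for neighbours further apart in the same windows is not given, so this rise cannot be read as particular to close pairs. Runs of exactly 2 peaks made up 8.61% of the peaks. The share of strong peaks among the others was 13.1% when weighted to width, 10.6% to window class and 13.1% to both, and their share at a second value of 0 was 28.8%, 27.1% and 26.6%. Weighting to windows was added after seeing the data. Motifs were not run without mm9 sequence. No paired analysis was possible because only 1 library had values, and no replicate could be left out. The depth behind each peak is unknown. Whether a close pair is 2 sites or 1 enriched stretch listed in 2 parts cannot be told apart.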
